A study of Homo sapiens with 4 samples.

Results

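The 34 genes described here act in drug transport, detoxification and redox defence. The list holds 9 efflux transporters, 5 genes of a xenobiotic receptor and oxidising enzymes and 6 reductases. It also holds 4 conjugating enzymes, 8 genes of glutathione and thioredoxin supply and 2 regulators. The 34 genes were chosen by name with earlier results of these data known, so their shares beside all genes are descriptions only. They were followed among 19775 genes with a probe set of their own on an Affymetrix expression array. RNA came from the human cell line PC14, derived from a lung cancer of the non-small-cell type, which was sorted by fluorescence into 4 subpopulations with 1 array each. E-cadherin, the adhesion protein of epithelial cells, divided the line first. A lentiviral green fluorescent reporter under the P1 promoter of CD133, a surface protein used to mark stem-like cancer cells, divided each fraction again. The 4 groups were thus E-cadherin-low CD133-high cells, E-cadherin-high CD133-high cells, E-cadherin-low CD133-low cells and E-cadherin-high CD133-low cells. The labels call E-cadherin-high cells epithelial and E-cadherin-low cells mesenchymal, and CD133-high cells stem-like. All 4 derive from 1 line, the reporter is carried by the sorted cells, and no drug treatment is named.

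Cells handle drugs and reactive chemicals in steps. Oxidising and reducing enzymes modify a compound, conjugating enzymes attach glutathione or a sugar acid to it, and ATP-driven pumps of the ABC family carry the product out of the cell. Glutathione and thioredoxin supply the reducing power. Many of these genes are switched on by NRF2, encoded by NFE2L2, which KEAP1 holds down until electrophiles or oxidants modify it. Others answer to the aryl hydrocarbon receptor AHR, which binds planar aromatic compounds. In lung cancer, high activity of the NRF2 programme and high levels of efflux pumps are known from cells that resist drugs.

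Signals are deposited intensities on a linear scale. The floor of an array was the 50th percentile of its probe sets other than controls, a signal of 53.7 to 60.3, and lower signals were set to it before a ratio was taken. Of the 34 genes, 25 exceeded the floor of 1 array or more, which is called measured, and 20 exceeded it on all 4. Each gene is given by its brightest probe set unless others are named. To be counted, a gene had to differ by 2-fold or more, with the same sign, in both of the pairs of arrays that differ in 1 sorted marker. With 1 array per group there is no replicate error and no test within a group. The only fit is an additive one of both markers with limma, which has 1 residual degree of freedom and takes the pairs of a comparison as repeats of each other. Spread between probe sets was also read. Within a pair, the log2 ratios of a gene's brightest and next brightest probe sets differed by a median of 0.23 to 0.31 (5197 genes). Both probe sets were read on the same arrays, so this spread leaves out differences between arrays, sorts and RNA preparations.

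**Figure D1:**
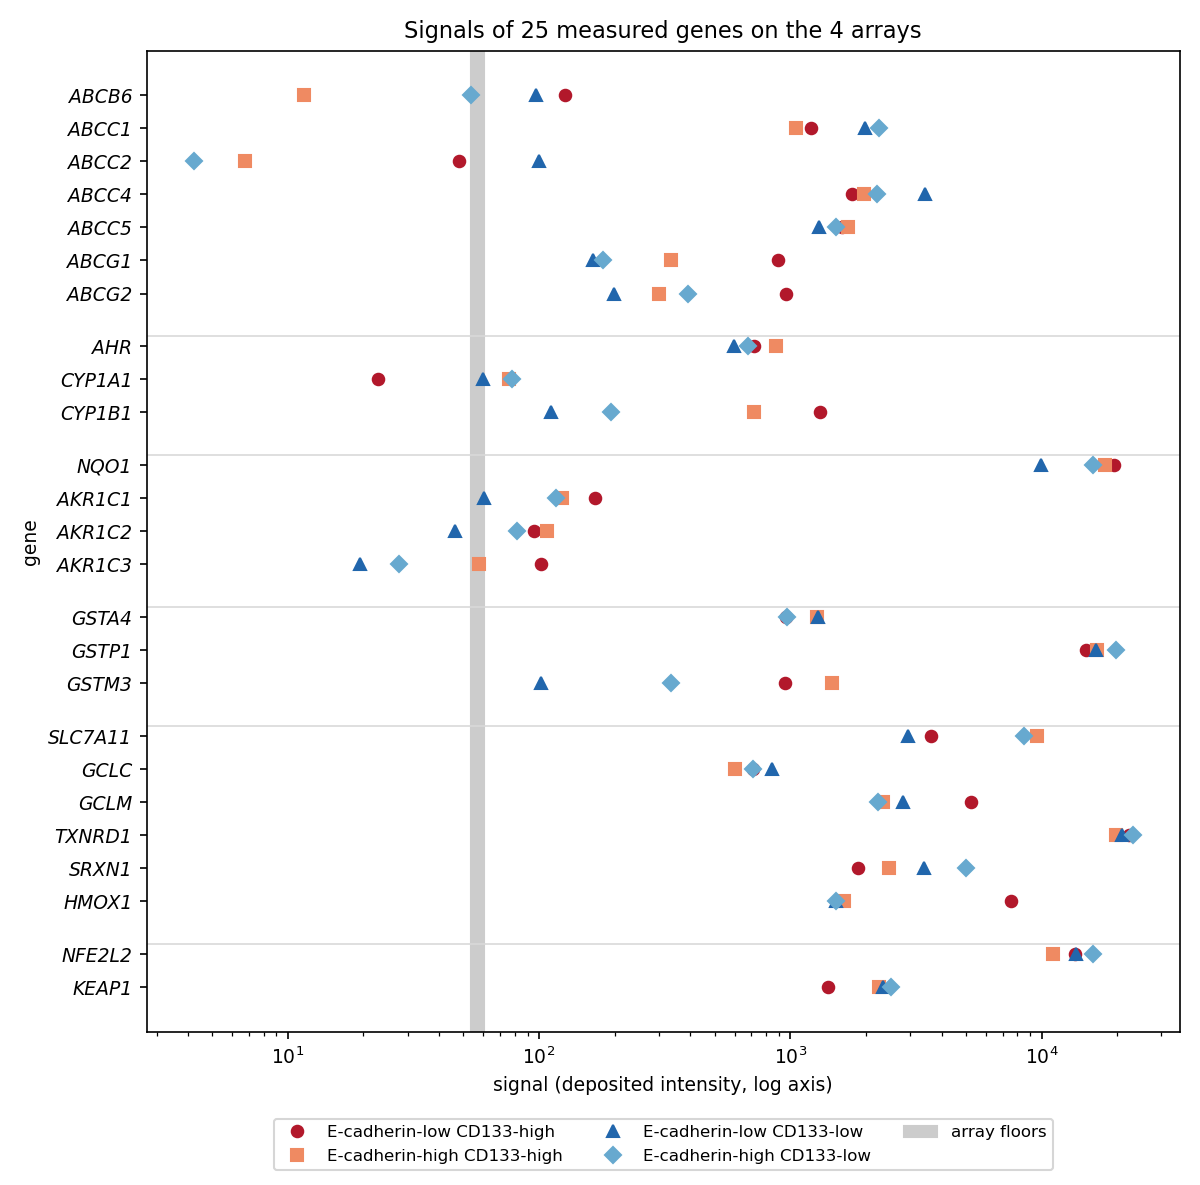
Signals of the 25 measured genes on the 4 arrays, on a log axis in intensity units, grouped by role from efflux transporters at the top to regulators at the bottom. Points are single arrays and the grey band spans the array floors of 53.7 to 60.3. HMOX1, ABCG1 and ABCG2 have 1 point, that of E-cadherin-low CD133-high cells, well to the right of the rest, and SLC7A11 splits by E-cadherin.

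Markers of the sort and of cell identity were read on the same arrays. CDH1, the E-cadherin gene, read 347.0 and 527.8 in E-cadherin-low cells, against 5548 and 3546 in E-cadherin-high cells. PROM1, the CD133 gene, lay below the floor on all arrays. It read 10.3 and 12.1 in CD133-high cells and 4.79 and 29.7 in CD133-low cells, so it gives no check of the CD133 sort. Of 9 epithelial and lung adenocarcinoma markers, 7 were above the floor on all 4 arrays and KRT19 was below it on all. Their summed signal was 16051 and 15627 in E-cadherin-low cells, against 29998 and 31586 in E-cadherin-high cells. The sum includes CDH1, the gene of the sorted protein, and came mostly from EPCAM and KRT18. Not all members followed it. KRT7 and SFTPB read higher in E-cadherin-low cells of the CD133-high class, and NAPSA and NKX2-1 in those of the CD133-low class. Of 3 leukocyte markers CD14 was below the floor throughout, and the summed signal, mostly from PTPRC, was 1165 and 1283 in CD133-high cells and 533.8 and 414.3 in CD133-low cells. Of 5 fibroblast markers PDGFRB was below the floor on all arrays, 2 were above it on all, and the sum, mostly from COL3A1, was 17634 to 31565. COL1A2 and DCN of that list went against the sum: COL1A2 read 434.7 in E-cadherin-low CD133-high cells, against 18.6 to 65.1 in the others, and DCN 358.4, against 52.9 to 170.8. Of 3 endothelial markers VWF and CDH5 were below the floor on all arrays and the sum was 142.1 to 185.6. The part of these differences in the results below was not tested. In sorted bulk RNA, fewer cells with a transcript and less of it per cell cannot be told apart.

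Promoter sequence is shown for some genes that hold a motif core named next, both genes that differed between arrays and genes that differed little. The antioxidant response element, to which NRF2 binds, was searched by its core TGACNNNGC, and the xenobiotic response element of AHR by its core GCGTG, on both strands of RefSeq windows of 250 bases before and 50 after each gene start (GRCh38.p14). Windows matched for 20 of the 25 measured genes, all but ABCC1, ABCG1, CYP1B1, SLC7A11 and HMOX1. The first core was in 6 of these 20 (30%) and in 13.6% of all 27305 windows, and the second was in 10 of the 20 (50%) and in 36.3% of all windows. The next lines give the 250 bases before the start, 5′ to 3′ on the gene's strand, with matches to either core in capitals and no overlap between the matches of the 2 cores. GCLM differed between arrays while GSTP1 and TXNRD1, which also hold the antioxidant core, differed little. GCLM, GSTM3 and CYP1A1 hold the xenobiotic core, and of the last 2 GSTM3 differed with CD133 by its brighter probe set only, whereas CYP1A1 stayed near the floor. Not printed are ABCG2 and AKR1C1, which differed at least 2-fold over the arrays and hold neither core. SRXN1, which also differed at least 2-fold, holds the xenobiotic core but not the antioxidant one.
GCLM, chr1:93909431-93909680, minus strand: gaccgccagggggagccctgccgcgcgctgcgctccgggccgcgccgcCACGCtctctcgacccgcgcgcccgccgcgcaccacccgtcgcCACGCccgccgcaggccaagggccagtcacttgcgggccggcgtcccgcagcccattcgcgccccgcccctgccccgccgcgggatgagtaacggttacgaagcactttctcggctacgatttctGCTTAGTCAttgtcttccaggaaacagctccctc
GSTP1, chr11:67583562-67583811, plus strand: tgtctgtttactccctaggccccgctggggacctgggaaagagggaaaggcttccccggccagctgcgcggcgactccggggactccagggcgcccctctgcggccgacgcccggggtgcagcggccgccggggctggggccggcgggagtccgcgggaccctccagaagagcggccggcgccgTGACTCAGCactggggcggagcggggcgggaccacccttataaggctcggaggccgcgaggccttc
TXNRD1, chr12:104215529-104215778, plus strand: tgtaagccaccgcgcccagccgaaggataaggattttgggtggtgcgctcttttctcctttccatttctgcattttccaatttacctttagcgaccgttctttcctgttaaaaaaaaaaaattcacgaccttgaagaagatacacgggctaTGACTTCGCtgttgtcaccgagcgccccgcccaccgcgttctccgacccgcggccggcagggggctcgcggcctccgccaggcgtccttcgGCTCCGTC
GSTM3, chr1:109741039-109741288, minus strand: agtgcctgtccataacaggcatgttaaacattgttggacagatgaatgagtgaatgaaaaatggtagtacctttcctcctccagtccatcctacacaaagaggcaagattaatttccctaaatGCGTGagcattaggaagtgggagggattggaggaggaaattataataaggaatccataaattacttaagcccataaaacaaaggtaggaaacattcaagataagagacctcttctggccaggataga
CYP1A1, chr15:74725529-74725778, minus strand: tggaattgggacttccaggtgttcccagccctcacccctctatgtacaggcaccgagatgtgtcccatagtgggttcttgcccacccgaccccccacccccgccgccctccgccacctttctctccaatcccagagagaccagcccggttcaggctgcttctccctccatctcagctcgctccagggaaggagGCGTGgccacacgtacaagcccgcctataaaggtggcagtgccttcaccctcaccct
In GCLM the antioxidant core lies on the opposite strand and its match begins 34 bases before the start, and in GSTP1 it begins 66 bases before. The other capitals in GCLM are 2 matches to the xenobiotic core on the opposite strand, which begin 202 and 159 bases before the start. In TXNRD1 the first match begins 99 bases before the start, and the last runs on past the printed end. In GSTP1 the match also holds TGACTCA, the letters of an AP-1 site. A match describes the letters of the window and is no evidence of binding.

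Over the 4 arrays, 11 of the 25 measured genes (44%) had a highest signal at least 2-fold above the lowest, which held for 24.2% of the 14083 measured genes. These were the transporters ABCB6, ABCC1, ABCG1 and ABCG2, the enzymes CYP1B1, AKR1C1 and GSTM3, and SLC7A11, GCLM, SRXN1 and HMOX1 of redox supply. They did not follow a common pattern. SLC7A11 differed with E-cadherin, CYP1B1 and GSTM3 with CD133, and HMOX1, ABCG1 and ABCG2 were high on a single array. For GSTM3 this held by its brighter probe set only. The other 14 measured genes, NFE2L2 and KEAP1 among them, stayed within 2-fold.

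**Figure D2:**
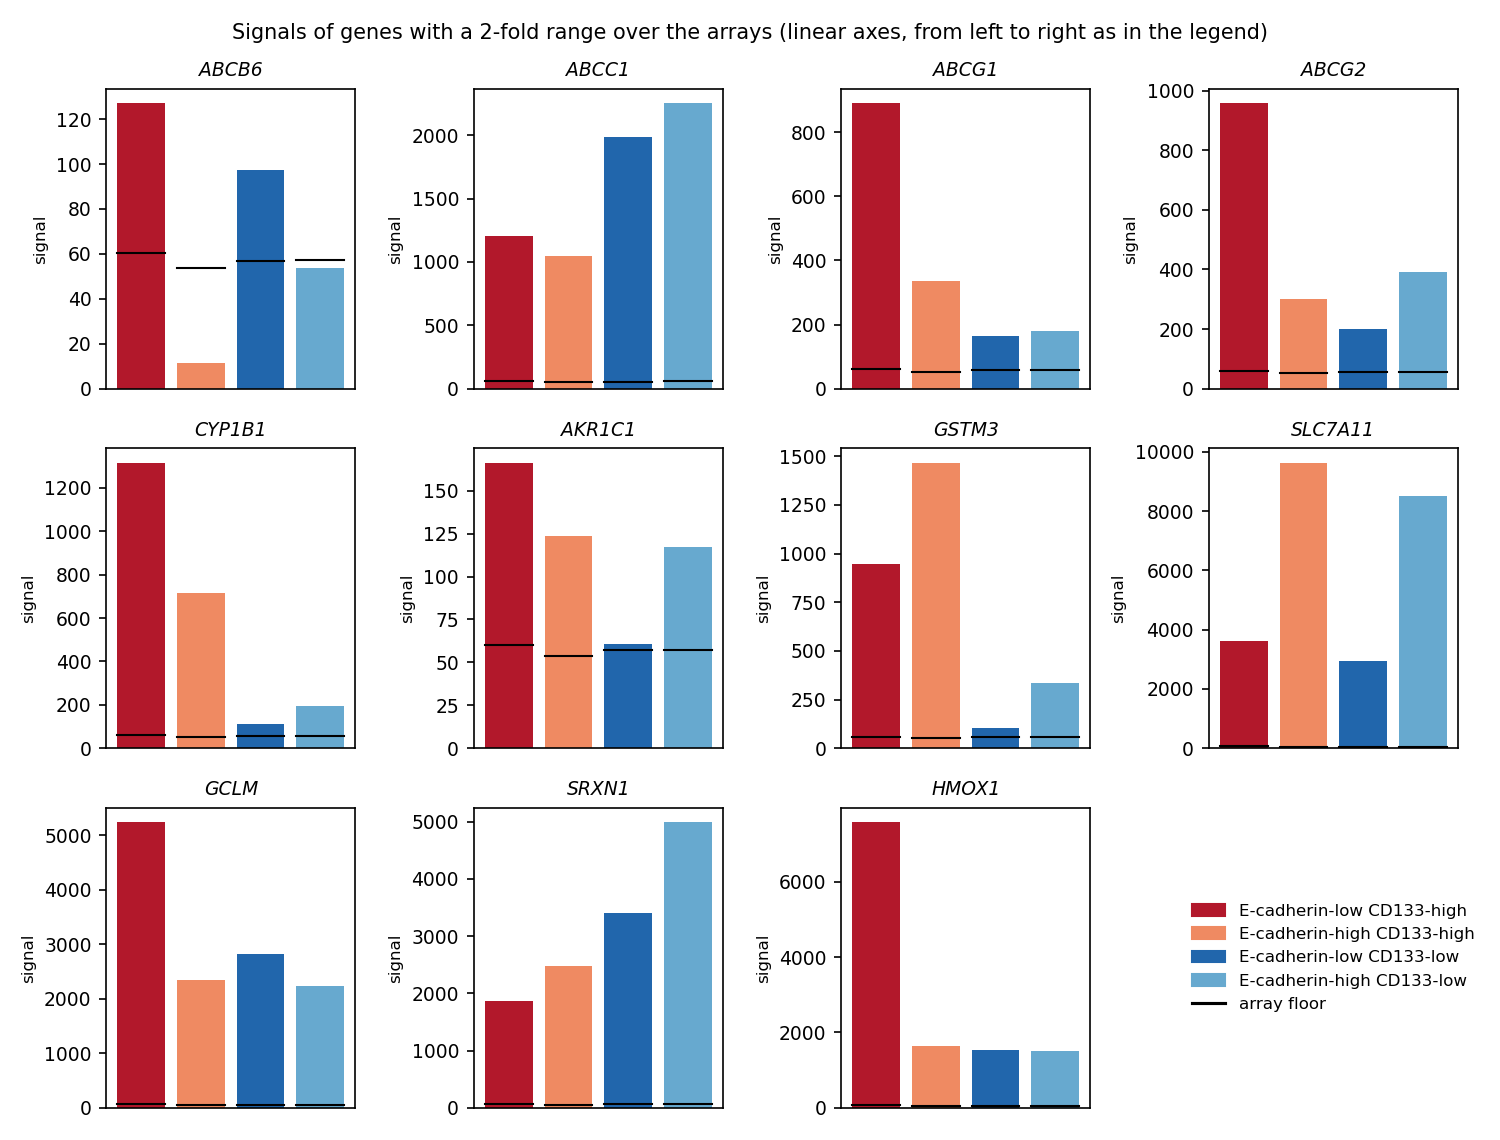
Signals (linear axes from 0) of the 11 genes with a 2-fold range, 1 bar per array, from left to right E-cadherin-low CD133-high, E-cadherin-high CD133-high, E-cadherin-low CD133-low and E-cadherin-high CD133-low cells, with a black line at each array's floor. The first bar of HMOX1 stands at 7586, against 1519 to 1639 for the others.

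Whether genes of drug handling go with the epithelial or the mesenchymal state was asked by setting E-cadherin-low against E-cadherin-high cells within each CD133 class. In both pairs 1 of the 25 measured genes was counted as lower, SLC7A11, against 0.54% of all measured genes, and 0 were counted as higher, against 0.476%. The median log2 ratio of the 25, averaged over the pairs, was 0.01, against 0.00 for all measured genes. The limma fit called 0 of the 25 for either marker, with 4 at an unadjusted p under 0.05 for E-cadherin and 5 for CD133. Of all 14083 measured genes, 961 had an unadjusted p under 0.05 in that fit for E-cadherin and 2345 for CD133. Of all measured genes that fit called 0% for E-cadherin, and for CD133 it called 0.192% as higher and 0.199% as lower. Within CD133-high cells alone, 5 of the 25 were at least 2-fold higher in E-cadherin-low cells, namely ABCB6, ABCG1, ABCG2, GCLM and HMOX1, against 3.81% of all genes, and SLC7A11 was lower, against 2.53%. Within CD133-low cells 0 of the 25 were at least 2-fold higher, against 2.63%, and SLC7A11 and GSTM3 were lower, against 2.87%.

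SLC7A11 imports cystine, the source of the cysteine in glutathione. It read 3633 and 2940 in E-cadherin-low cells (CD133-high and CD133-low), against 9635 and 8504 in E-cadherin-high cells. The signal was 2.65-fold lower in CD133-high and 2.89-fold lower in CD133-low cells, log2 ratios of -1.41 and -1.53. The second probe set of the gene read 3305 and 2514 in E-cadherin-low cells, against 7696 and 6613 in E-cadherin-high cells, and also met the rule in both pairs. The dimmest read 223.0 and 266.9 in E-cadherin-low cells, against 427.4 and 590.4 in E-cadherin-high cells. It had log2 ratios of -0.94 and -1.15, just short of the threshold in CD133-high cells. CD133 made little difference to SLC7A11, with log2 ratios of 0.31 in E-cadherin-low and 0.18 in E-cadherin-high cells by the brightest probe set. The limma fit gave SLC7A11 an adjusted p of 0.321 for E-cadherin.

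The enzyme that starts glutathione synthesis did not share this pattern. GCLM, its modifier subunit and the gene whose promoter is printed above, read 5241 and 2818 in E-cadherin-low cells, against 2348 and 2230 in E-cadherin-high cells. The signal was thus higher in E-cadherin-low cells in both pairs, by 2.23-fold in CD133-high and 1.26-fold in CD133-low cells, and only the CD133-high value passes 2-fold. The second probe set of GCLM had log2 ratios of 1.33 and 0.50 and the remaining one of 1.05 and 0.84, so all 3 were higher in E-cadherin-low cells. GCLC, the catalytic subunit, read 709.7 and 844.1 in E-cadherin-low cells, against 603.3 and 710.3 in E-cadherin-high cells. Its log2 ratios were 0.23 and 0.25, and those of its second probe set 0.25 and 0.62, all short of 2-fold. GCLM thus had the higher signal in E-cadherin-low cells, and the cystine importer the lower. For GCLC, the ratios of the brightest probe set were about the size of the median spread between probe sets. That spread was 0.23 in the CD133-high and 0.31 in the CD133-low pair.

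Whether the same genes go with the CD133 reporter was asked by setting CD133-high against CD133-low cells within each E-cadherin class. In both pairs 2 of the 25 measured genes were counted as higher, CYP1B1 and GSTM3, against 2.45% of all measured genes, and 0 as lower, against 1.12%. The median log2 ratio of the 25, averaged over the pairs, was 0.23, against 0.00 for all measured genes, and it was 0.31 in E-cadherin-low and 0.00 in E-cadherin-high cells. Without shared probe sets, those with an ID suffix for matches to several transcripts or genes, the median was -0.02. In E-cadherin-low cells, ABCG1, ABCG2, CYP1B1, AKR1C1, GSTM3 and HMOX1, 6 of the 25, were at least 2-fold higher in CD133-high cells, against 8.11% of all genes, and 0 were lower, against 4.27%. In E-cadherin-high cells the 2 counted genes were higher, against 5.04%, and ABCC1 and SRXN1 were at least 2-fold lower, against 3.24%.

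**Figure D3:**
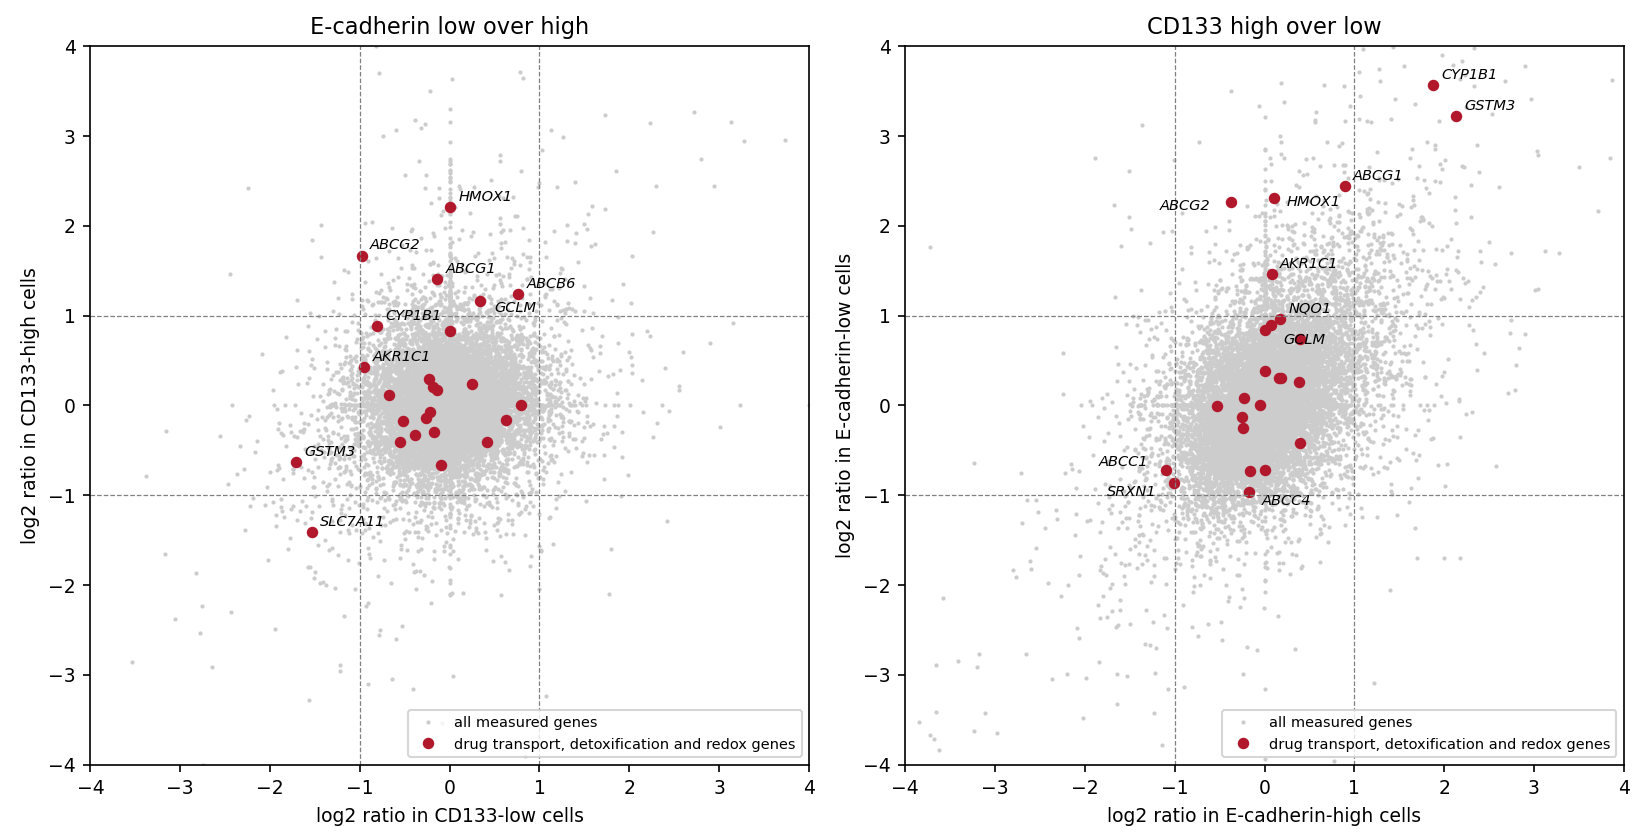
Log2 ratios of each gene in 1 pair of arrays against the other, for E-cadherin low over high (left panel) and CD133 high over low (right panel). Red points are the 25 genes, grey points all measured genes, dashed lines mark 2-fold, and genes beyond a log2 ratio of 4 lie outside the axes. Among the red points, SLC7A11 is alone past both lines at the lower left of the left panel, and CYP1B1 and GSTM3 are past both at the upper right of the right panel.

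CYP1B1, an oxidising enzyme that activates polycyclic aromatic compounds and is induced through AHR, read 1315 and 714.4 in CD133-high cells (E-cadherin-low and E-cadherin-high), against 111.2 and 194.1 in CD133-low cells. The signal was 11.8-fold higher in E-cadherin-low and 3.68-fold higher in E-cadherin-high cells, log2 ratios of 3.56 and 1.88. A second probe set had log2 ratios of 3.30 and 1.31 and another of 4.22 and 2.45, so all 3 above the floor met the rule, although their average ratios differed by 1.03. The fourth, at 5.7 to 8.4, was below the floor on all arrays. All are shared probe sets, so CYP1B1 has no value without them. Within CD133-high cells CYP1B1 was 1.84-fold higher in E-cadherin-low cells, and within CD133-low cells it was 1.75-fold lower, so the order of the E-cadherin classes turned. The limma fit gave CYP1B1 an adjusted p of 0.0732 for CD133.

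The receptor itself and CYP1A1 had smaller CD133 ratios than CYP1B1. AHR read 716.0 and 879.5 in CD133-high cells, against 598.6 and 676.5 in CD133-low cells, log2 ratios of 0.26 in E-cadherin-low and 0.38 in E-cadherin-high cells. CYP1A1, a textbook target of AHR whose promoter is printed above, read 22.9 and 75.7 in CD133-high cells and 59.9 and 78.1 in CD133-low cells, near or below the floor on each array. CYP24A1, which inactivates vitamin D, and the aldehyde dehydrogenase ALDH3A1 did not reach the floor of any array and read at most 18.6 and 14.1.

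GSTM3, a glutathione transferase of the mu class, read 948.6 and 1466 in CD133-high cells (E-cadherin-low and E-cadherin-high), against 101.7 and 333.6 in CD133-low cells. It was 9.33-fold higher in E-cadherin-low and 4.40-fold higher in E-cadherin-high cells, log2 ratios of 3.22 and 2.14. This gene also read lower in E-cadherin-low cells, by 1.55-fold among CD133-high and 3.28-fold among CD133-low cells. These values rest on 1 shared probe set. The other probe set of GSTM3 read 73.0 and 62.5 in CD133-high cells and 62.2 and 75.5 in CD133-low cells, just above the floor, and had log2 ratios of 0.23 and -0.27. The probe sets of GSTM3 therefore disagree. The limma fit gave the brighter one an adjusted p of 0.0554 for CD133.

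By their brightest probe sets the remaining conjugating enzymes stayed within 2-fold. GSTP1, the pi class transferase that is abundant in many carcinomas and whose promoter is printed above, read 15092 and 16609 in CD133-high cells, against 16459 and 19775 in CD133-low cells, and its 4 log2 ratios lay between -0.26 and -0.13. GSTA4, which conjugates the lipid peroxidation product hydroxynonenal, read 964.5 and 1280 in CD133-high cells, against 1293 and 972.2 in CD133-low cells. Its dimmer probe set was 1.78-fold and 1.99-fold higher in E-cadherin-low cells, which the brighter one was not. UGT1A6, which attaches glucuronic acid to phenols, had 1 probe set of its own, below the floor on all arrays at 15.3 to 45.9.

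Another pattern was a high signal in E-cadherin-low CD133-high cells alone. That array lay at least 2-fold above all 3 others for 3 of the 25 genes (12%), HMOX1, ABCG1 and ABCG2, against 1.73% of all measured genes. The same array enters both the E-cadherin ratio in CD133-high cells and the CD133 ratio in E-cadherin-low cells, so the 2 ratios of these genes are not separate observations. HMOX1, haem oxygenase, which breaks down free haem and is induced by oxidative stress, read 7586 in E-cadherin-low CD133-high cells. It read 1639 in E-cadherin-high CD133-high, 1527 in E-cadherin-low CD133-low and 1519 in E-cadherin-high CD133-low cells. The other 3 arrays thus lay close together, 1.08-fold apart at most. The difference was 4.63-fold over E-cadherin-high cells of the same CD133 class and 4.97-fold over CD133-low cells of the same E-cadherin class. HMOX1 has a single probe set in the table. The fibroblast markers COL1A2 and DCN were also at least 2-fold higher on this array than on the others. The rest of that list did not peak there. COL3A1 read 19767 on this array, against 15938 to 29221 on the others, and COL1A1 1935, against 1614 to 2087. PDGFRB was below the floor on all arrays. The part of these markers in the HMOX1 pattern was not tested.

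ABCG2, the breast cancer resistance protein, a pump for many anticancer drugs and for the dyes used to find side-population cells, read 957.4 in E-cadherin-low CD133-high and 301.4 in E-cadherin-high CD133-high cells. In CD133-low cells it read 199.0 in E-cadherin-low and 391.8 in E-cadherin-high cells. The E-cadherin ratio was thus 3.18-fold higher among CD133-high and 1.97-fold lower among CD133-low cells, log2 values of 1.67 and -0.98. The CD133 ratio was 4.81-fold higher in E-cadherin-low and 1.30-fold lower in E-cadherin-high cells. The difference between the strata was not tested, and ABCG2 too has a single probe set.

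ABCG1, which exports cholesterol to lipoproteins, read 889.9 in E-cadherin-low CD133-high and 334.9 in E-cadherin-high CD133-high cells, against 164.0 in E-cadherin-low CD133-low and 180.4 in E-cadherin-high CD133-low cells. Its CD133 log2 ratios were 2.44 in E-cadherin-low and 0.89 in E-cadherin-high cells, so both pairs lay on the same side and the second fell short of 2-fold. All 4 probe sets of ABCG1 were highest in E-cadherin-low CD133-high cells. The other 3 had E-cadherin log2 ratios of 0.46 to 1.43 among CD133-high cells. GCLM joined this group below the threshold, with the E-cadherin-low CD133-high signal of 5241 standing above 2818, 2348 and 2230.

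**Figure D4:**
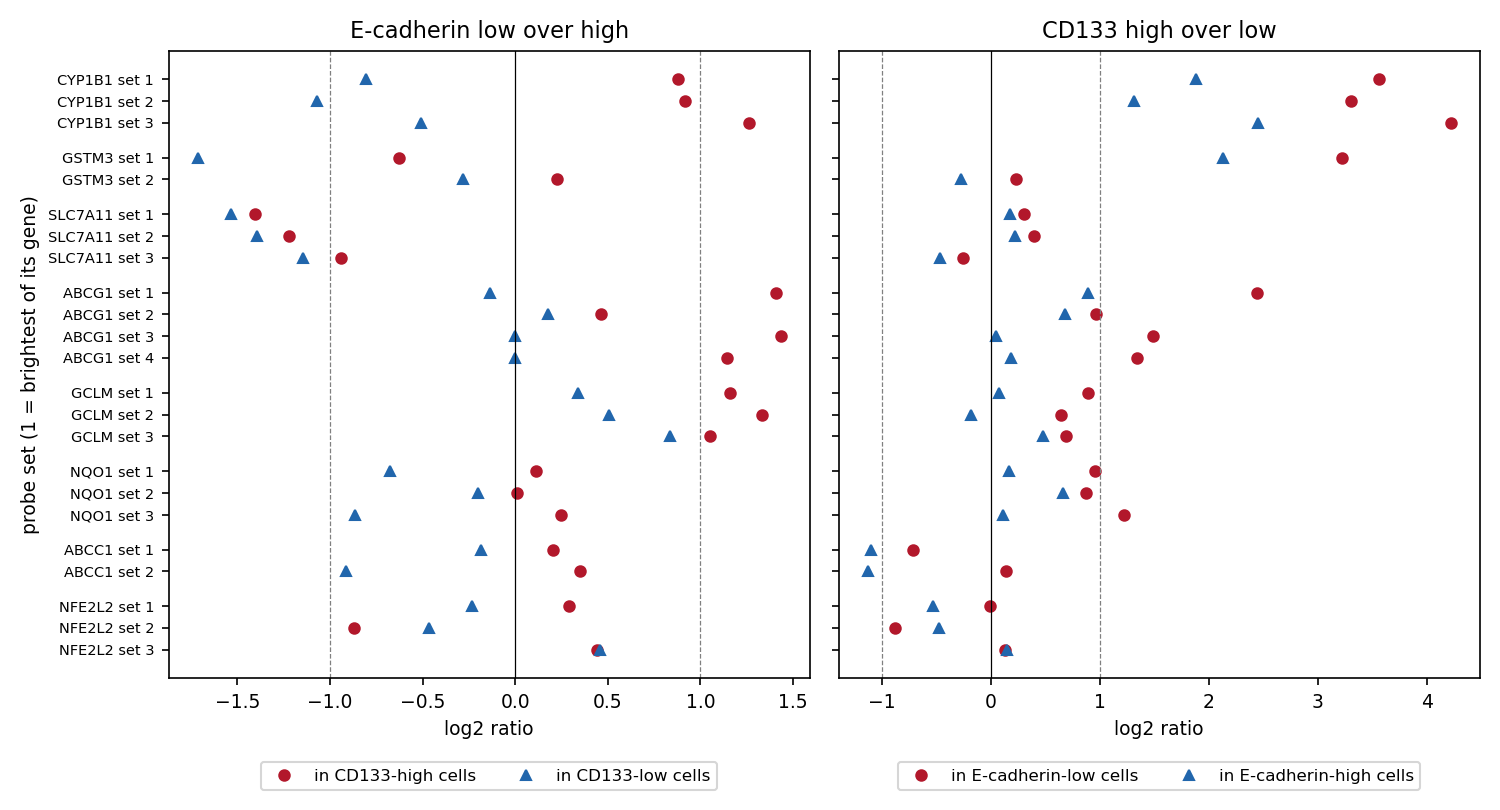
Log2 ratios of every measured probe set of 8 genes, brightest first within a gene, for E-cadherin low over high (left) and CD133 high over low (right). Red circles and blue triangles are the 2 pairs of arrays, the solid line is 0 and the dashed lines mark 2-fold. The probe sets of SLC7A11 all lie below 0 and those of GCLM all above 0 for E-cadherin, those of CYP1B1 and ABCG1 all lie above 0 for CD133, and those of GSTM3 disagree for CD133.

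Among the other transporters, the multidrug resistance proteins ABCC1 and ABCC4 had the higher signal in CD133-low cells, and ABCC5 did not by its brightest probe set. ABCC1 (MRP1), which pumps glutathione conjugates, read 1207 and 1049 in CD133-high cells (E-cadherin-low and E-cadherin-high), against 1984 and 2252 in CD133-low cells. The signal was 1.64-fold and 2.15-fold lower by this brightest probe set. The dimmer probe set of ABCC1 read 235.9 and 185.3 in CD133-high cells, against 214.8 and 405.3 in CD133-low cells, and shared the direction only in E-cadherin-high cells, with a log2 ratio of -1.13. ABCC4 (MRP4), a pump of cyclic nucleotides and nucleotide analogues, read 1754 and 1964 in CD133-high cells, against 3429 and 2212 in CD133-low cells, log2 ratios of -0.97 and -0.17. Its second probe set had -1.02 and -0.87. ABCC5 (MRP5) read 1607 and 1691 in CD133-high cells, against 1298 and 1515 in CD133-low cells, within 1.30-fold over the arrays. Its second probe set had log2 ratios of the other sign, -0.19 and -0.31.

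Other efflux pumps lay near or under the floor. ABCB1, P-glycoprotein, read at most 24.4 by either of its own probe sets and ABCC3 (MRP3) at most 26.8 by any of its 5. ABCC2 (MRP2) was above the floor in E-cadherin-low CD133-low cells only, at 99.6, against 48.1 in E-cadherin-low CD133-high, 6.7 in E-cadherin-high CD133-high and 4.2 in E-cadherin-high CD133-low cells. ABCB6, a porphyrin transporter of mitochondria and other membranes, read 127.0 and 97.4 in E-cadherin-low cells (CD133-high and CD133-low) and lay below the floor at 11.6 and 53.8 in E-cadherin-high cells. It was at least 2.37-fold higher among CD133-high and at least 1.70-fold higher among CD133-low cells. ABCB6 and ABCC2 each have 1 probe set above the floor.

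By their brightest probe sets the reductases NQO1, AKR1C1 and AKR1C2 had their lowest signal in E-cadherin-low CD133-low cells. NQO1, which reduces quinones and is a standard readout of NRF2, read 19429 in E-cadherin-low CD133-high and 17966 in E-cadherin-high CD133-high cells, against 9982 in E-cadherin-low CD133-low and 15961 in E-cadherin-high CD133-low cells. All 3 probe sets of NQO1 were lowest on that array. The brightest gave a 1.95-fold CD133 difference in E-cadherin-low cells and 1.13-fold in E-cadherin-high cells, and the dimmest gave 2.34-fold and 1.08-fold.

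AKR1C1, AKR1C2 and AKR1C3 are close copies of ketosteroid reductases whose probe sets can pick up each other's transcripts, so their values are uncertain. AKR1C1 read 166.3 and 123.9 in CD133-high cells, against 60.5 and 117.0 in CD133-low cells, 2.75-fold higher in E-cadherin-low and 1.06-fold higher in E-cadherin-high cells. A second probe set of AKR1C1 had CD133 log2 ratios of 1.10 and 0.02, and a dim one above the floor on 1 array had 0.00 and -0.33. AKR1C2 read 95.2 and 107.5 in CD133-high cells, against 46.3, below the floor, and 81.5 in CD133-low cells. Its other probe set read 70.9 and 97.4 in CD133-high cells, against 55.6 and 32.4, both below the floor, in CD133-low cells, so its lowest signal was in E-cadherin-high CD133-low cells. AKR1C3 lay above the floor only in CD133-high cells, at 102.1 and 57.5. AKR1B10, which reduces aldehydes, was below the floor on all arrays, and AKR1B1, aldose reductase, had no probe set under its symbol here.

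Of the genes that keep proteins reduced, SRXN1 differed with CD133 and TXNRD1 differed little. SRXN1, sulfiredoxin, which repairs overoxidised peroxiredoxins and is an NRF2 target, read 1866 and 2477 in CD133-high cells (E-cadherin-low and E-cadherin-high), against 3397 and 4991 in CD133-low cells. It was 1.82-fold and 2.02-fold lower, with the first ratio short of 2-fold. TXNRD1, thioredoxin reductase, whose promoter is printed above, read 22251 and 19777 in CD133-high cells, against 20952 and 23088 in CD133-low cells, a range of 1.17-fold. GPX2, a glutathione peroxidase, and ME1, which makes NADPH, did not reach the floor of any array and read at most 50.8 and 37.8.

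The regulators stayed within 2-fold over the arrays. NFE2L2 read 13609 and 11122 in CD133-high cells, against 13688 and 16103 in CD133-low cells, log2 ratios of -0.01 and -0.53. Its 2 dim probe sets disagreed in the E-cadherin comparison, with log2 averages over the pairs of -0.67 and 0.45. KEAP1 read 1415 and 2248 in CD133-high cells, against 2347 and 2511 in CD133-low cells, lower in both pairs by 1.66-fold in E-cadherin-low and 1.12-fold in E-cadherin-high cells. The lowest KEAP1 signal was in E-cadherin-low CD133-high cells. Of the members above the floor on all arrays, those cells also held the highest signal of HMOX1, GCLM, NQO1, AKR1C1, CYP1B1, ABCG1 and ABCG2. They held the lowest signal of SRXN1, GSTP1, GSTA4 and ABCC4. SLC7A11, GCLC and TXNRD1 were neither highest nor lowest there. A relation of KEAP1 to these genes was not tested.

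Over the 20 members above the floor on all arrays, E-cadherin-low CD133-high cells held the highest signal of 7 (35%, against 27.8% of 10891 such genes in all). The same cells held the lowest of 5 (25%, against 29.7%). E-cadherin-high CD133-low cells held the highest of 6 (30%, against 27%), and E-cadherin-low CD133-low cells the lowest of 9 (45%, against 27%). These shares were not tested.

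The wider pathways were followed in 9 lists of 337 other genes, of which 207 were measured. In the E-cadherin comparison 2 were counted as higher and 1 as lower (0.966% and 0.483% of the 207), and in the CD133 comparison 2 as higher and 4 as lower (0.966% and 1.93%). The same shares over all measured genes were 0.476% and 0.54% for E-cadherin and 2.45% and 1.12% for CD133. No gene of the 17 measured other ABC transporters, the 31 other reductases and aldehyde dehydrogenases or the 11 receptor partners was counted.

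The counted genes came from several steps. UGDH, which makes the glucuronic acid donor used by UGT enzymes, was counted in both comparisons. It read 7423 in E-cadherin-low CD133-high, 3157 in E-cadherin-high CD133-high, 2881 in E-cadherin-low CD133-low and 1383 in E-cadherin-high CD133-low cells. Its E-cadherin log2 ratios were 1.23 among CD133-high and 1.06 among CD133-low cells, and its CD133 log2 ratios 1.37 and 1.19 in E-cadherin-low and E-cadherin-high cells. SESN3, a stress-induced sestrin, read 700.1 and 452.3 in CD133-high cells, against 121.3 and 139.5 in CD133-low cells, log2 ratios of 2.53 and 1.70. SLC22A15, of the organic cation transporter family, read 80.4 and 78.4 in E-cadherin-low cells, against 174.0 and 214.7 in E-cadherin-high cells.

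Lower in CD133-high cells were NFE2L1, a relative of NRF2, and CYP26B1, which degrades retinoic acid. NFE2L1 read 1840 and 2229 in CD133-high cells, against 3967 and 4800 in CD133-low cells, log2 ratios of -1.11 and -1.11. CYP26B1 had -1.30 and -1.81. Of 20 genes of the amino acid stress response, which also includes the control of SLC7A11 by ATF4, 2 were lower. That is 10%, against 1.12% of all measured genes, and SLC7A11 itself differed little with CD133. The amino acid transporter SLC7A5 read 1287 and 1130 in CD133-high cells, against 3322 and 3499 in CD133-low cells, and STC2 read 136.0 and 364.8 in CD133-high cells, against 760.1 and 775.1 in CD133-low cells. In the E-cadherin comparison 1 gene of this list was counted, as higher (5%, against 0.476% of all measured genes). This was the amino acid transporter SLC1A4, at 132.0 and 164.4 in E-cadherin-low cells, against 48.1 and 74.8 in E-cadherin-high cells. The other measured probe sets of NFE2L1, CYP26B1, SESN3, SLC1A4 and STC2 did not meet the rule.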

How the data were processed

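Total RNA from 4 sorted subpopulations was hybridised to 1 array each. The deposited values are intensities per probe set, made by the authors with MAS5 per the submitters' processing notes, whose version is not given in the sources used. Trimmed by 2% at either end, the mean was 500.1 on each array, so the deposited intensities were scaled. There were no detection calls. Of 54675 probe sets, 62 were controls. Of the rest, 41091 had 1 gene symbol in the platform annotation, 1801 had several and were not used for genes, and 11721 were unnamed here. Gene IDs of all 73 probe sets of the 34 genes matched RefSeq, and 0 symbols differed.

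Log2 ratios were taken as described with the floors. A ratio against a floored signal is a lower bound, and a pair with both arrays at the floor has a ratio of 0. Where flooring turned the direction the value is no bound, as for the CD133 ratio of CYP1A1 in E-cadherin-low cells. Its log2 value of 0.009 was kept in the medians and the fit. Precision is limited by the number of arrays. The 34 genes, the lists of other pathway genes and the counting rule were chosen with earlier results of these data known. All 34 are accounted for, and up to 4 counted genes per other list and direction are named, by the smaller of the 2 absolute ratios. The additive limma fit had 1 residual degree of freedom and Benjamini-Hochberg adjustment over 14083 genes. The counting code was tested on simulated data. Alternatives are given at the end. Tables were made in Python 3.11.15 with pandas 2.3.3 and numpy 2.4.6, the fit in limma 3.58.1 under R 4.3.3, and the plots with matplotlib 3.10.9.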

Additional observations from a re-analysis of the deposited data

How the results depend on the processing

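Where a value changed with the setting, the cause was not tested unless stated. The average CD133 log2 ratio of GSTM3, 2.68, became -0.021 without shared probe sets, which leaves its dim probe set, and 1.33 as a mean over probe sets. Of the 25 measured genes 0 were counted as higher for E-cadherin, against 1 at 1.5-fold. With no floor 4 of 33 were, namely ABCB1, ABCC2, CYP24A1 and AKR1B10, of which only ABCC2 is among the 25, and 676 of all 19775 genes met the rule. With a floor at the 25th percentile 1 of 32 was, ABCC2, and 335 of 18572 genes met the rule. The count of lower genes for E-cadherin was 1, against 2 at 1.5-fold and 0 at 3-fold and by limma. For CD133 the count of higher genes was 2, against 3 with no floor, 3 with the floor at the 25th percentile, 3 at 1.5-fold, 1 with means over probe sets and 0 without shared probe sets and by limma, and that of lower genes was 0, against 1 with no floor and 2 at 1.5-fold. The CD133 median of 0.23 turned sign under 3 settings, to -0.013 with no floor, -0.021 with a floor at the 25th percentile and -0.021 without shared probe sets, and was 0.066 with means over probe sets. The E-cadherin median of 0.01 became -0.07 with equal array medians. For the other pathway genes and E-cadherin, the 2 higher became 8 with no floor, 5 and 1 with floors at the 25th and 65th percentiles, 7 at 1.5-fold, 0 at 3-fold, 1 with means over probe sets, 1 without shared probe sets and 0 by limma. The 1 lower became 7 with no floor, 2 and 0 with those floors, 3 at 1.5-fold, 0 at 3-fold and 0 by limma. For CD133 the 2 higher became 7 with no floor, 4 with the floor at the 25th percentile, 14 at 1.5-fold, 1 at 3-fold, 1 with means over probe sets and 0 by limma. The 4 lower became 14 with no floor, 9 at 1.5-fold, 0 at 3-fold, 2 with means over probe sets, 2 without shared probe sets and 0 by limma. At 1.5-fold, 250 of all 14083 genes were higher and 258 lower for E-cadherin, and 933 and 554 for CD133. With no floor, 904 of all 19775 genes were higher and 705 lower for CD133, and 503 were lower for E-cadherin. With the floor at the 25th percentile, 626 of 18572 were higher and 362 lower for CD133, and 241 were lower for E-cadherin. Of the other pathway genes, 296 were measured with no floor and 285 with that lower floor. Over all 14083 genes limma called 0 for E-cadherin, with 961 at an unadjusted p under 0.05, and 55 for CD133, with 2345. The 3 genes high in E-cadherin-low CD133-high cells became 6 at 1.5-fold and 1 at 3-fold. Equal array medians moved the median of all genes by -0.17 in the E-cadherin ratio of CD133-high cells. No paired analysis was possible because the labels number no replicates, apart from the additive fit, in which each marker serves as a block for the other. Differences near the floor are limited by signal over background.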

Other observations

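Genes of the wider pathways that stood at least 2-fold apart on 1 array were looked up after their values were seen. E-cadherin-low CD133-high cells lay above all others for 4 of the 207 measured genes (1.93%), UGDH among them, close to the 1.73% of all measured genes. CYBA, a subunit of the NADPH oxidase that makes superoxide, read 474.8 in these cells, against 109.1 to 117.6 in the others. CTH, which makes cysteine from cystathionine, read 1866, against 624.8 to 830.9, and the prostaglandin reductase PTGR2 read 301.3, against 51.8 to 86.3. STC2 lay below all others there. E-cadherin-low CD133-low cells lay below all others for MVP, the major vault protein, at 296.9, against 650.0 to 1107. The same held for the retinaldehyde dehydrogenase ALDH1A3, at 211.3, against 462.9 to 561.1, and for the sulfotransferase SULT2B1, at 49.4, below the floor, against 211.5 to 277.5. The nicotinamide methyltransferase NNMT, at 210.0 against 21.2 to 51.9, and ABCB5, at 126.6 against 11.6 to 43.9, were above the floor in these cells only.

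In E-cadherin-high CD133-high cells UGT8 read 628.2, against 127.0 to 220.8 in the others, and the methionine sulfoxide reductase MSRB3 read 1485, against 3173 to 6014. In E-cadherin-high CD133-low cells NFE2L3, a relative of NRF2, read 1617, against 650.7 to 760.5, the stress factor DDIT3 read 1134, against 402.4 to 501.3, and CYP2A7 read 141.4, against 12.3 to 44.8. The glutaredoxin GLRX read 124.8 there, against 280.2 to 838.2, and UGDH also had its lowest signal there.

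Probe sets assigned to several genes were not used above. One shared by NFE2L2 and another gene read 651.7 and 754.7 in E-cadherin-low cells, against 1065 and 962.6 in E-cadherin-high cells. Of 5 shared by UGT1A6 and other UGT1A genes, the brightest read 81.2 to 105.4.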
